A study of Gallus gallus with 2 samples.

Results

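Blood islands are the clusters of mesoderm in the extraembryonic part of the avian blastoderm in which the first blood and endothelial cells form. Their cells come from mesoderm that leaves the primitive streak and moves outward over the yolk. TAL1, a basic helix-loop-helix transcription factor, and LMO2, a LIM-only protein that bridges TAL1 to GATA factors, are required for early blood formation, as known from mouse, and both mark the common blood and endothelial lineage. The cells described here are the 420 of 7750 that the authors' annotation names blood islands, or 5.42% of the total (95% exact Clopper-Pearson interval 4.93 to 5.95%). They were selected by that class name alone.

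All cells came from 1 preparation of whole chicken (Gallus gallus) embryos at Hamburger-Hamilton stage HH5, when the notochord is emerging and mesoderm is still leaving the streak. RNA and accessible chromatin (ATAC) were read from the same cells by the 10x Multiome assay, which gave 1 library of each kind. The labels give no genotype, strain or treatment and no contrasting group. Each cell is listed with its class, its ATAC rank where it has one, and its place on the 2 axes of a weighted nearest neighbour UMAP. This embedding sets cells with alike RNA and ATAC profiles close together, so a distance in it has no unit and is not a distance in the embryo. The table holds no gene values, so LMO2 and TAL1 were not analysed here and the class name was not checked against them. Barcodes were distinct for all 7750 cells. With 1 preparation there were no replicates, differences between classes have no test, and every interval covers counting error only. The depth behind each cell is unknown.

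Blood islands made up 420 of the 1069 cells that carry no ATAC rank, or 39.3% (95% interval 36.3 to 42.3%). The other unranked cells were extraembryonic endoderm and area opaca. None of the 420 blood island cells was ranked. Among the 6681 ranked cells no rank was repeated, and the highest was 6681. The sources used here do not say what was ranked or what its low and high ends stand for. Any statement on rank beside blood islands therefore concerns the ranked cells around them, not the blood island cells themselves. Set against mesoderm, there were 420 blood island cells to 2936 cells in the 6 mesoderm classes, so blood islands made up 12.5% of the pooled cells (11.4 to 13.7%).

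Blood island cells filled the upper left corner of the embedding and formed its tip on both axes. Their median position was -6.01 on the first coordinate (quartiles -6.32 and -5.58) and 6.34 on the second (quartiles 5.96 and 6.59). The lowest first coordinate of any cell, -6.73, and the highest second coordinate of any cell, 6.96, both belonged to blood islands. Ordered from the low end of the first coordinate, 218 blood island cells came before the first cell of another class, a mesoderm-4 cell at -5.98. From the high end of the second coordinate, 135 came before the first other cell, which was mesoderm-1 at 6.51. All 123 cells beyond both medians of the class were blood islands, which already follows from the order on the first coordinate. All 74 cells within both of its quartile ranges were also blood islands. On each axis alone other classes shared the end. Of the 420 cells with the lowest first coordinate, 61 were mesoderm-4 (14.5%) and 1 was mesoderm-1. Of the 420 with the highest second coordinate, 132 were mesoderm-1 (31.4%).

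**Figure D1:**
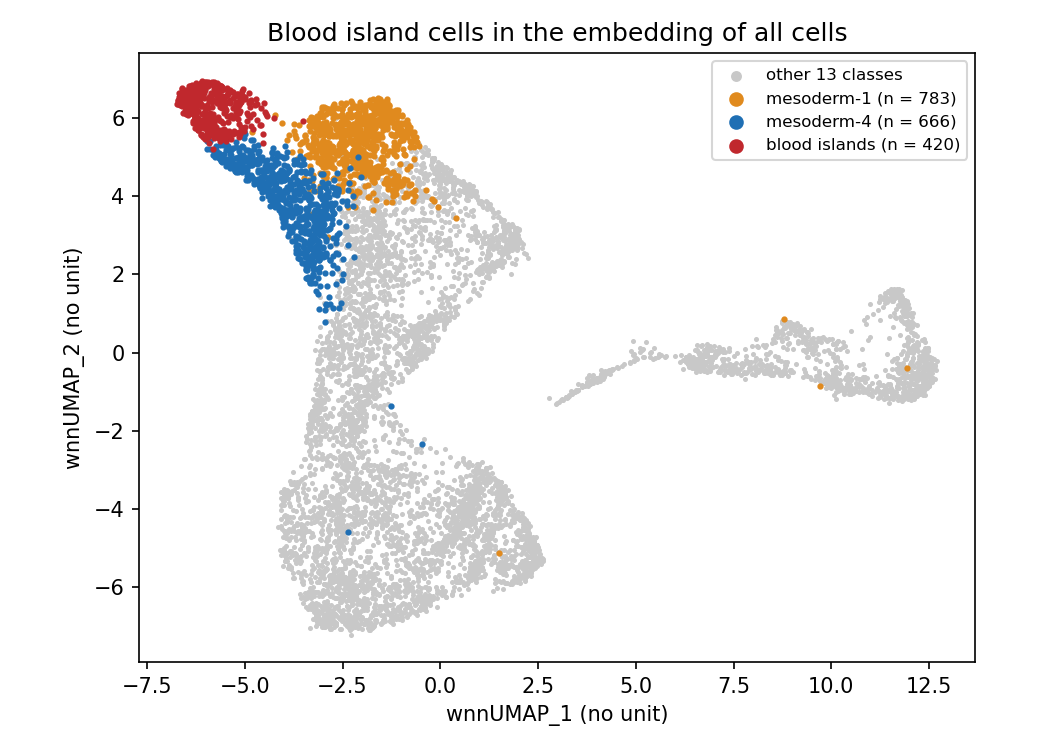
Each point is 1 of 7750 cells at its coordinates on the first (horizontal) and second (vertical) embedding axis, neither with a unit. The 420 blood island cells sit at the upper left tip, above the 666 mesoderm-4 cells and to the left of the 783 mesoderm-1 cells, with the other 13 classes in grey.

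The class was compact and nearly continuous. The median distance of a blood island cell from the median position of its class was 0.561, and 90% of cells lay within 1.03. This was the fifth lowest median of the 16 classes, next to mesoderm-5 at 0.557 and mesoderm-6 at 0.541, and below mesoderm-4 at 1.06 and mesoderm-1 at 0.906. When cells of the class were linked wherever they lay within 0.3 of each other, 419 of 420 formed 1 piece and 1 cell stood alone. The lone cell was 0.761 from the nearest other blood island cell, whereas every other link needed to join the class was at most 0.231. With links of at most 0.15, the class fell into 13 pieces. The largest held 400 cells (95.2%) and 8 were single cells. The long axis of the cloud took 68.5% of its variance (SD 0.566 along it and 0.384 across it), the fourth lowest share of the 16 classes. This share counts outlying cells, so its order among classes does not compare shape alone. In notochord (99.8%) the farthest cell lay 8.28 from the median position, against a median of 0.282. The class names and the embedding may rest on the same profiles, so compactness may be built in.

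In the embedding, blood island cells were packed more closely toward the tip. The cells were divided into 4 groups of 105 by their distance from the nearest mesoderm cell, leaving out stray mesoderm cells. A stray is a cell for which under 8 of the 15 nearest cells share its class. In the group beside mesoderm (distances 0.0299 to 0.666) the median distance to the nearest cell of the same class was 0.0487, and it was 0.0376, 0.0308 and 0.0279 in the groups that followed. The farthest group lay 1.40 to 1.70 from mesoderm, at a median position of -6.30 and 6.73. Distance from mesoderm followed the second coordinate (Spearman's rho = 0.95 across 420 cells of 1 preparation) more closely than the first (rho = -0.53). Its rho with the distance to the nearest cell of the same class was -0.35. Whether closer spacing in the embedding reflects more alike profiles was not tested. Mesoderm-4 and mesoderm-1 were the only other classes among the 15 nearest cells, so mixing was likely to fall in the group beside mesoderm. It was not bound to, since stray mesoderm cells, left out in forming the groups, count among the 15 nearest. All 15 nearest cells were blood islands for 31 of 105 cells in the group beside mesoderm (29.5%), for 104 of 105 in the second and for all 105 in each of the farther groups.

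Mesoderm-4 was the main neighbour. Of the 6300 places among the 15 nearest cells of blood island cells, 6086 were held by blood islands (96.6%), 167 by mesoderm-4 (2.65%) and 47 by mesoderm-1 (0.746%). No other class held any. Around 1 stray blood island cell lay 15 of the 47 mesoderm-1 places. The other strays of the class held 13, 8 and 14 of the 167 mesoderm-4 places. At least 1 mesoderm-4 cell was among the 15 nearest of 55 blood island cells (13.1%), and at least 1 mesoderm-1 cell among those of 30 (7.14%). Seen from the other side, 38 of 666 mesoderm-4 cells (5.71%) and 9 of 783 mesoderm-1 cells (1.15%) had a blood island cell among their own 15 nearest. With 50 nearest cells, mesoderm-4 held 3.51% of places and mesoderm-1 held 0.767%.

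By distance, the order of mesoderm-4 and mesoderm-1 depended on a few cells. Between median positions, mesoderm-4 was closest of all classes to blood islands at 3.30, followed by mesoderm-1 at 4.05, mesoderm-3 at 5.45 and mesoderm-2 at 5.82. Measured from each blood island cell to the nearest cell of a class, mesoderm-1 came first with a median of 0.729 (quartiles 0.417 and 0.981, 95% interval of the median 0.661 to 0.779), ahead of mesoderm-4 at 0.818 (quartiles 0.441 and 1.09, interval 0.759 to 0.876). By this measure 321 of 420 blood island cells (76.4%) were nearer to mesoderm-1 than to mesoderm-4. For 360 of the 420 (85.7%) the nearest mesoderm-1 cell was the same 1 cell, placed at -5.79 and 5.82. The order without this cell alone was not tested. None of its own 15 nearest cells was mesoderm-1 and 14 were blood islands. A mesoderm-4 cell at -5.70 and 5.70, with none of its 15 nearest in its own class and 14 in blood islands, likewise served 274 blood island cells (65.2%). The distances to either class are therefore not independent, and the intervals of both medians do not cover this sharing.

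Without stray mesoderm cells the order turned. The median distance was then 1.10 to mesoderm-4 and 2.03 to mesoderm-1, and 13 of 420 blood island cells (3.10%, interval 1.66 to 5.23%) were nearer to mesoderm-1. With the mean distance to the 5 nearest cells of a class, strays included, the medians were 0.943 for mesoderm-4 and 1.61 for mesoderm-1, and 2.14% of blood island cells were nearer to mesoderm-1. Mesoderm-2 followed at 3.06, or 4.56 without its stray cells. The classes that stood farthest were extraembryonic endoderm, 19.1 between median positions, and area opaca, at 18.5. These are the other classes of the extraembryonic part of the embryo. Whether so wide a gap in the embedding reflects an equally large difference in profiles was not tested. Nearest-cell medians of 3.72 for neural ectoderm-1 and 4.06 for endoderm also came from strays, and became 12.1 and 12.5 without them.

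**Figure D2:**
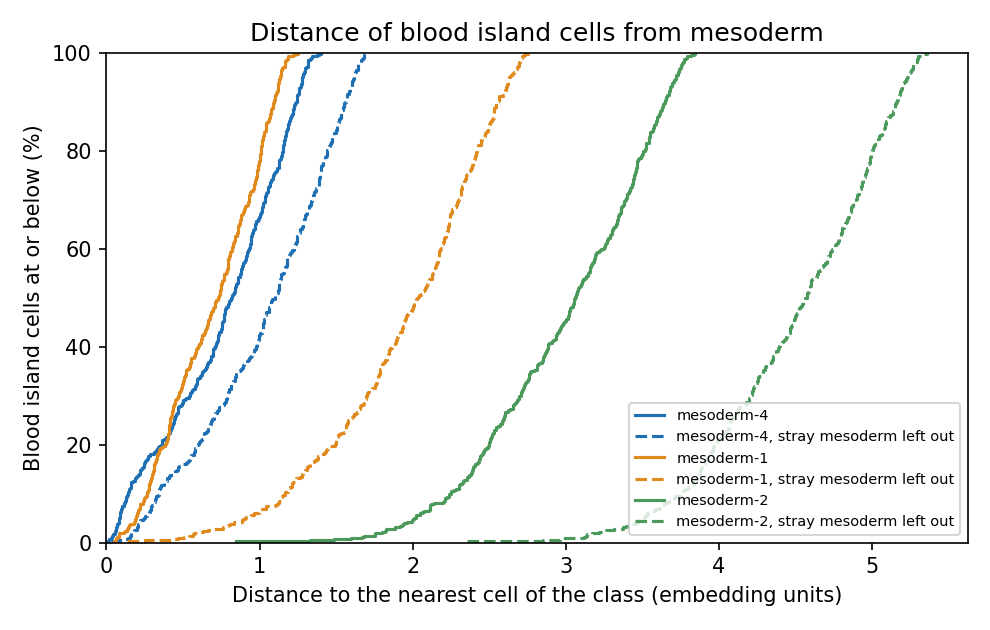
The horizontal axis is the distance in embedding units from a blood island cell to the nearest cell of a mesoderm class, and the vertical axis is the percent of the 420 blood island cells at or below that distance. Solid lines use all cells of a class and dashed lines leave out stray mesoderm cells, which moves the mesoderm-1 median from 0.729 to 2.03 and the mesoderm-4 median from 0.818 to 1.10.

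Few blood island or mesoderm cells lay among cells of the other side. The class names and the embedding may rest on the same profiles. This, like the 96.6% of places held by blood islands, may therefore be built in. Of the blood island cells, 345 (82.1%) had all 15 nearest cells in their own class, 71 (16.9%) had 8 to 14, and 4 (0.952%) had fewer than 8 and are the strays of the class. The lone cell, at -3.50 and 5.92, had 15 mesoderm-1 cells around it, whose ranks had a median of 4913 (quartiles 4539 and 5302.5). A second stray, at -5.82 and 5.20, had 14 mesoderm-4 cells around it, with a median rank of 5351. The remaining pair lay close together, at -4.53 and 5.37 and at -4.54 and 5.60. They had 13 and 8 mesoderm-4 cells and 1 mesoderm-1 cell each among their 15 nearest, and the median rank around them was 5380 and 5511. In the other direction, 12 mesoderm cells had 8 or more blood islands among their 15 nearest. The 9 from mesoderm-4 had ranks from 4370 to 6452 with a median of 5075, against 5807 for the rest of the class. The 3 from mesoderm-1 had ranks of 4713, 4808 and 5511. These ranks lay on both sides of 4944.5, the median of the rest of mesoderm-1. Whether any of these cells are doublets was not tested.

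**Figure D3:**
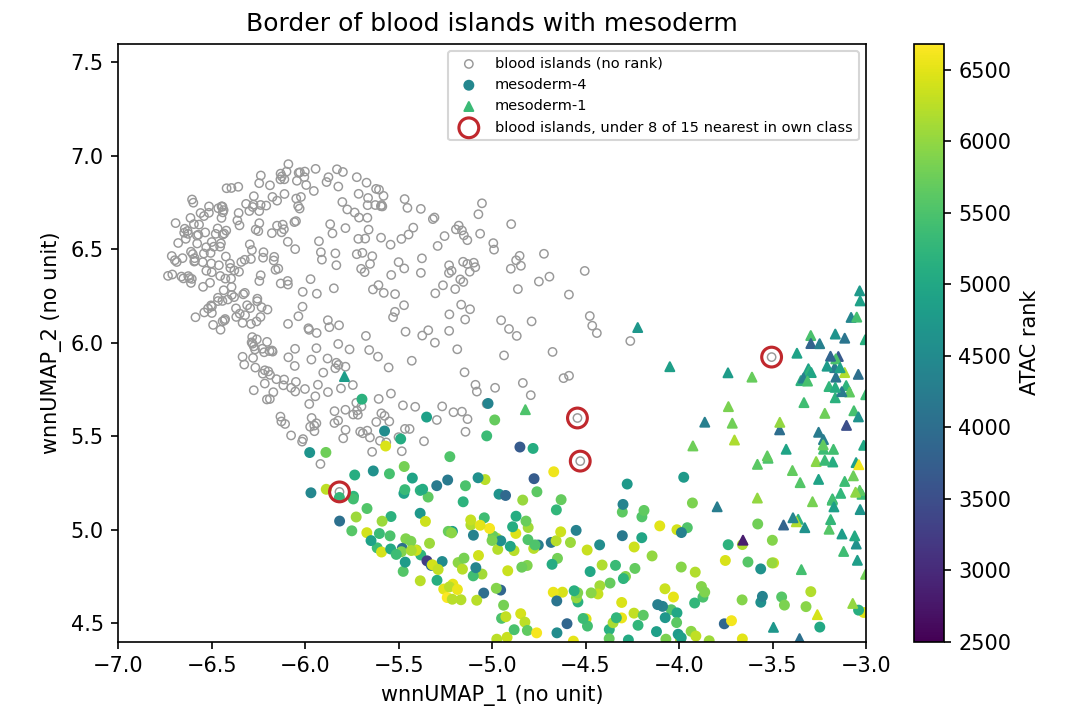
The horizontal and vertical axes are the first and second embedding coordinates (no unit) around the border. Open circles are blood island cells, filled circles and triangles are mesoderm-4 and mesoderm-1 cells coloured by ATAC rank (mesoderm-2 is not drawn), and large rings mark the 4 stray blood island cells; mesoderm-4 runs along the lower edge, with mesoderm-1 reached across a sparse stretch on the right.

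The ranked cells around blood islands came from the upper part of the rank. Pooling the 15 nearest mesoderm cells of every blood island cell gave 79 distinct cells, 55 from mesoderm-4 and 24 from mesoderm-1, and no other mesoderm class was among them. Their ranks ran from 3681 to 6576 with a median of 5175 (quartiles 4691.5 and 5645, 95% interval of the median 4915 to 5418). The median of the 2857 other mesoderm cells was 4869, and the 79 ranked above them in 57.7% of pairs. All 79 ranked above the middle rank of 3341. This is little more than their classes give, since 99.7% of all mesoderm-4 and 98.98% of all mesoderm-1 cells did so. The rank was also divided into 10 nearly equal bins, numbered from the lowest ranks. None of the 79 was in the lowest 5 bins, which restates that all of them ranked above the middle. Bin 8 held 26 of them (32.9%) and bin 9 held 23 (29.1%), against 18.9% and 18.4% of all mesoderm. Part of this follows from their classes. Bin 8 held 18.8% of all mesoderm-4 and 27.3% of all mesoderm-1 cells, and bin 9 held 26.3% and 23.5%. Bin 10 held 10 (12.7%), against 18.5% of all mesoderm, 39.8% of mesoderm-4 and 10.3% of mesoderm-1. The share in bin 10 rests on 10 cells and was given no interval.

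The mesoderm-4 and mesoderm-1 cells of this border differed in how they compared with the rest of their class. Among the 55 mesoderm-4 cells the median was 5249 (quartiles 4656.5 and 5659.5). Among the 611 other mesoderm-4 cells it was 5873 (quartiles 5104 and 6305.5). The quartile ranges overlapped, and a border cell ranked above another mesoderm-4 cell in 32.2% of pairs, where 50% would mean no difference in level. Of all mesoderm-4 cells, 39.8% lay in bin 10 of the rank, against 9 of these 55 (16.4%). The 24 mesoderm-1 cells had a median of 4933 (quartiles 4756.5 and 5490), close to the median of 4944 among the 759 others, and ranked above them in 53.5% of pairs. Mesoderm-4 cells ranked above mesoderm-1 cells in 72.8% of pairs over the whole classes and in 56.4% of pairs among the cells nearest to blood islands, or 42.1% of pairs when the stray blood island cells were left out.

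The mesoderm-1 part of this set depended on the stray blood island cells. Without the 4 strays, 57 mesoderm cells were nearest, 46 from mesoderm-4 and 11 from mesoderm-1. The mesoderm-4 median was then 5168.5 (quartiles 4649.75 and 5602.25). That of the 11 mesoderm-1 cells was 5511 (95% interval 4713 to 5836), above the value with the strays and also above the mesoderm-4 median. With 11 cells, this interval spans the mesoderm-4 median, so the order of the classes at the border was not settled. By distance the order was the reverse. Within 0.5 of a blood island cell that was not a stray, 58 mesoderm-4 cells had a median of 5333.5 and 4 mesoderm-1 cells one of 4822.5. The median over both classes, 5171, stayed within the interval given above. From the side of single blood island cells, the median rank of the 15 nearest mesoderm cells ranged from 4837 to 5511 and its quartiles were 5081 and 5087. Many blood island cells share their nearest mesoderm cells (14 distinct mesoderm-4 cells and 4 distinct mesoderm-1 cells were the nearest of their class for all 420), so these values are not independent.

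Within mesoderm-4, rank was lowest next to blood islands and higher farther away, but it did not keep rising. Within 0.5 of a blood island cell there were 83 mesoderm-4 cells, whose median was 5365 (quartiles 4810 and 5837, 95% interval of the median 5170 to 5546). The median was 5861.5 at 0.5 to 1 (124 cells) and 6063 at 1 to 1.5 (93 cells, quartiles 5447 and 6280, interval 5898 to 6176). It was 6035 at 1.5 to 2 and 5542 at 2 to 2.5 (104 cells, interval 5266 to 5721). Farther out it was 5881.5 at 2.5 to 3 and 5878.5 at 3 or more. Quartile ranges of all these distances overlapped. Across the 300 cells closer than 1.5, Spearman's rho between rank and distance was 0.26, and across the 366 cells at 1.5 or more it was -0.06. Over all 666 mesoderm-4 cells it was 0.06. These are descriptions across cells that share a library and an embedding built in part from their ATAC data. The split at 1.5 was set after the values were seen. Without the stray blood island cells, the median was 5333.5 within 0.5 (58 cells), 5817.5 at 0.5 to 1 and 5894.5 at 1 to 1.5. It was 6017 at 2 to 2.5 (85 cells), 5613 at 2.5 to 3 (107 cells) and 5803.5 at 3 or more. The lower median at larger distance thus moved from 2 to 2.5 to 2.5 to 3. Here rho closer than 1.5 was 0.25.

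In mesoderm-1 the pattern beside blood islands depended on the stray blood island cells. Its median rank was 4898.5 within 0.5 (44 cells, interval 4713 to 5201), 5032 at 0.5 to 1 (111 cells) and 5226 at 1 to 1.5 (163 cells, interval 4997 to 5362), and rho closer than 1.5 was 0.12 across 318 cells. Without the stray blood island cells, 4 mesoderm-1 cells lay within 0.5 with a median of 4822.5, 22 lay at 0.5 to 1 with a median of 5437.5, the median at 1 to 1.5 was 5125 (96 cells), and rho closer than 1.5 was 0.03 across 122 cells. The other 40 of the 44 lay within 0.5 of stray blood island cells only. The rank of mesoderm-1 was lowest far from blood islands. At 2.5 to 3 the median was 4540.5 (86 cells) and at 3 or more it was 3669 (25 cells, quartiles 3523 and 4351), or 4954 and 4581 without the strays. Over all 783 cells rho was -0.18, and -0.19 without the strays. The median rank of mesoderm-4 exceeded that of mesoderm-1 at all 7 distances, by 466.5 to 2209.5 ranks, the highest gap resting on the 25 mesoderm-1 cells at 3 or more. Without the strays it did so at all 7 by 380 to 1222.5 ranks. The lowest gap rested on the 22 mesoderm-1 cells at 0.5 to 1, and the gap within 0.5 on 4.

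**Figure D4:**
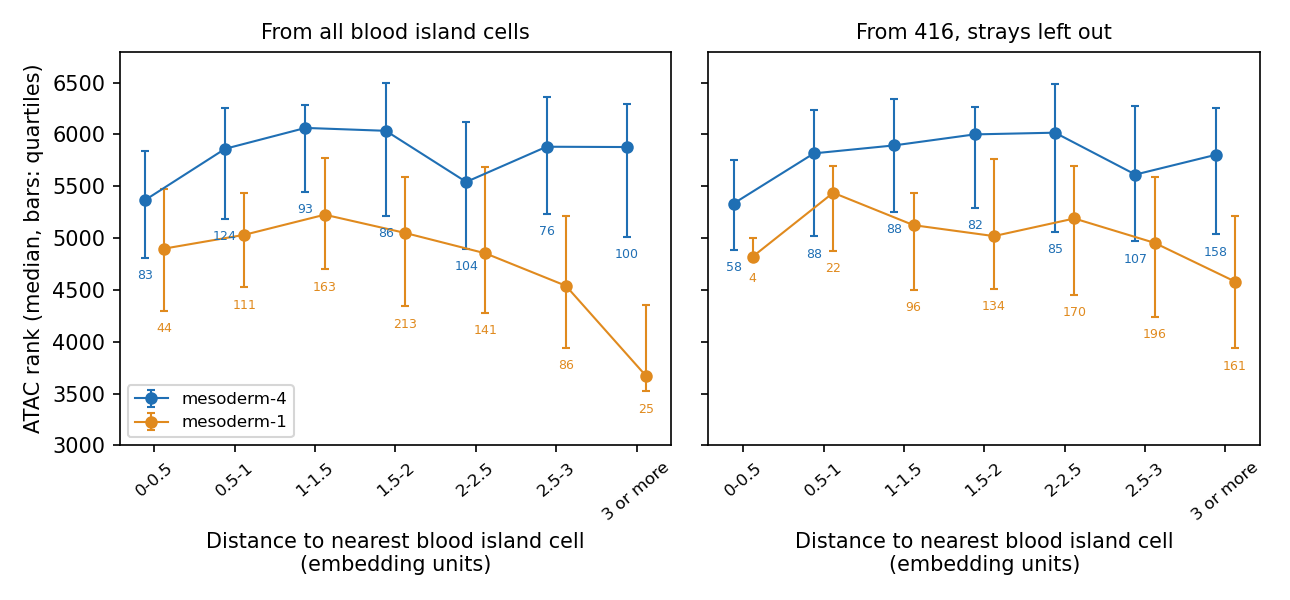
The horizontal axis is the distance of a mesoderm cell from the nearest blood island cell in 7 ranges (embedding units), and the vertical axis is the ATAC rank. Points are medians, bars are quartiles and small numbers are cells, for distances from all 420 blood island cells (left) and from the 416 left without strays (right); mesoderm-4 is lowest within 0.5 in both panels (5365 and 5333.5).

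Lower median ranks than inside mesoderm-4 were also present in its cells beside other classes, meaning with a cell of that class among their 15 nearest. A cell beside several classes counts with each of them, and strays were kept in this comparison. Where all 15 nearest cells were mesoderm-4 (432 cells), the median was 5948 (quartiles 5282.5 and 6340.5). The 38 with a blood island cell among their 15 nearest had a median of 5126.5 (quartiles 4585.75 and 5541.5), and ranked above the 432 in 25.5% of pairs. The median was 5383.5 for the 106 cells beside mesoderm-1, 5333 for the 31 beside neural ectoderm-2 and 5605 for the 89 beside mesoderm-2. It was 5620 for the 29 beside mesoderm-3 and 5761 for the 17 beside the primitive streak, nearer to the value inside the class. Cells beside blood islands ranked above those beside mesoderm-1, neural ectoderm-2 and mesoderm-2 and not beside blood islands in 39.9%, 43.2% and 36.3% of pairs. The 10 cells beside endoderm went the other way, with a median of 6336.5. Most neural ectoderm-2 and endoderm cells lay far from mesoderm-4. The upper quartile of neural ectoderm-2 on the second coordinate was -3.71, and the lower quartile of mesoderm-4 was 3.17. On the first coordinate the lower quartile of endoderm was 6.77, whereas mesoderm-4 reached -0.463 at most. The 31 and 10 cells therefore do not mark edges between classes, since they or their neighbours lay far from most of their class. The quartile ranges beside blood islands and mesoderm-1 overlapped, so a low rank at the edge of mesoderm-4 was not shown to be particular to blood islands.

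Blood islands differed from the other unranked classes in what they bordered. The ranked cells nearest to blood islands were the 79 mesoderm cells given above. Those nearest to extraembryonic endoderm were 74 cells, 57 of them endoderm, 15 neural ectoderm-2 and 2 mesoderm-1, with a median rank of 1839.5 (quartiles 1320.75 and 2496.25). Those nearest to area opaca were 19 cells, 18 of them endoderm, with a median of 2618 (quartiles 2222.5 and 2873). On the first coordinate the lower quartile of extraembryonic endoderm was 10.6, whereas neural ectoderm-2 reached 3.03 at most. The 15 neural ectoderm-2 cells therefore lay beside extraembryonic endoderm cells far from most of their class. No strays were left out of this comparison. The ranks nearest to blood islands exceeded those nearest to extraembryonic endoderm in 99.7% of pairs and those nearest to area opaca in 100% of pairs. Blood islands thus adjoined the upper part of the rank. Extraembryonic endoderm and area opaca adjoined mostly the lower part, with highest ranks of 4557 and 3604. Of the 3 unranked classes, blood islands had the highest share of cells beside ranked ones. A ranked cell was among the 15 nearest of 75 blood island cells (17.9%), of 47 extraembryonic endoderm cells (9.44%) and of 7 area opaca cells (4.64%). Mesoderm and endoderm also differ in rank as whole classes, and the contrast between borders cannot be told apart from that difference.

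**Figure D5:**
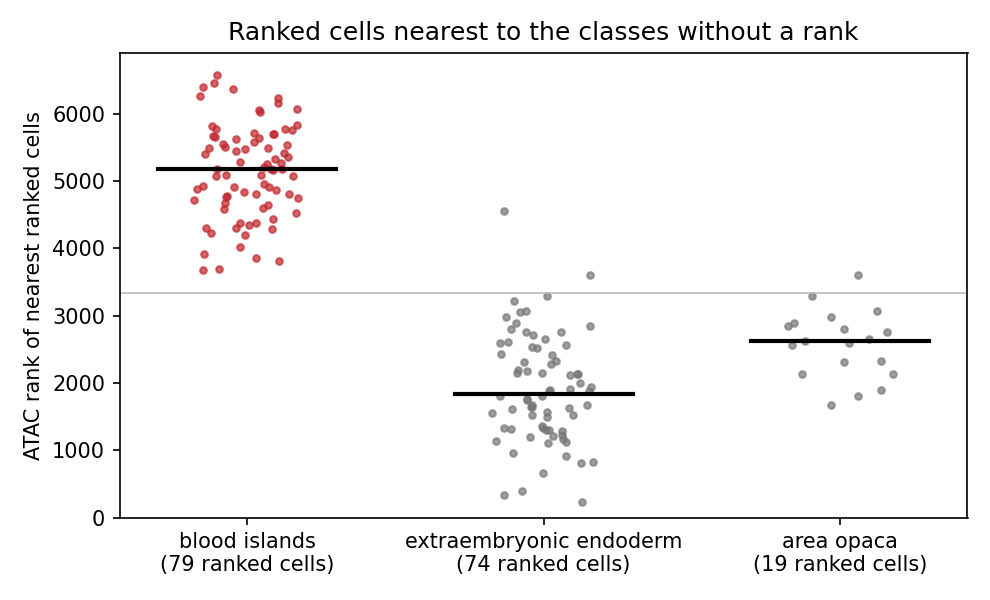
Each point is 1 ranked cell among the 15 nearest ranked cells of any cell in the unranked class named on the horizontal axis, the vertical axis is its ATAC rank, bars are medians and the thin line is the middle rank of 3341. The 79 cells nearest to blood islands lie between 3681 and 6576, above the line, and those nearest to extraembryonic endoderm and area opaca have medians of 1839.5 and 2618.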

How the data were processed

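RNA and ATAC libraries came from 1 preparation of HH5 chicken embryos. The submitters' processing notes name the genome build galGal6, Signac 1.8.0, Seurat 4.3.0 and Cell Ranger ARC 2.0.0. Settings, cell filters, doublet treatment and the naming of classes have no description in the sources used here. The authors deposited the ATAC rank and both embedding coordinates as unitless scores, and their class names were used as annotation.

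Blood islands were taken by class name. Distances are Euclidean. Nearest cells are the 15 nearest other cells. Medians have binomial order-statistic 95% intervals and shares exact (Clopper-Pearson) ones. Percentages of pairs count how often one cell ranked above the other. No test between classes was made, since cells are not replicates, and correlations carry no p. No doublet caller was run. Genes were to be named only if the table held gene values, and all its classes could be named. The functions were tested on simulated data. Alternatives were 5 or 50 nearest cells, means, scaled axes, other link lengths (0.15 and 0.6), Pearson correlation and leaving out strays. The cells and summaries were chosen with earlier results of these data known, and the distance ranges, the edge comparison and stray mesoderm cells were chosen after seeing the table. Python 3.11.15, pandas 2.3.3, NumPy 2.4.6, SciPy 1.17.1 and Matplotlib 3.10.9 were used.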

Additional observations from a re-analysis of the deposited data

How the results depend on the processing

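Of 60 alternative values for 21 results, 44 stayed within the counting interval or tolerance of the reported value (0.1 for a correlation, 1.5 times for a count, the class's own median spread for a distance between centres) and 16 moved. The 16 include the distances on scaled axes, which differ in unit and so do not show whether those results were stable. Likewise, the tolerance of 0.1 exceeds the mesoderm-4 rho of 0.06 over all 666 cells, so staying within it does not show stability. The order of mesoderm-4 and mesoderm-1 turned in nearest-cell distance without stray mesoderm cells or over 5 nearest cells. In nearest rank it turned without stray blood island cells, over 11 mesoderm-1 cells, but in the ranges of distance it did not. The mean position was -5.90 and 6.26 in place of the medians. The median distance to the nearest mesoderm-4 cell was 0.943 over 5 cells, 1.10 without stray mesoderm cells (added after seeing the data) and 0.193 on axes divided by their SD; for mesoderm-1 the same settings gave 1.61, 2.03 and 0.167. On scaled axes, whose unit differs, the distance between centres was 0.769 for mesoderm-4 and 0.888 for mesoderm-1, in the same order as unscaled. The share of blood island cells nearer to mesoderm-1, 76.4% as reported, was the value that moved most, to 2.14% over 5 nearest cells and 3.10% without stray mesoderm cells, because single cells inside the blood islands no longer set it. Without stray blood island cells, the median rank of the nearest mesoderm-1 cells was 5511, over fewer cells, and that of mesoderm-4 at 1 to 1.5 was 5894.5. With 50 nearest cells, 95.7% of places were blood islands and 3.51% mesoderm-4. No paired analysis was possible because both libraries come from 1 preparation and no sample groups exist to compare. Depth per cell was not analysed here.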
